A study of Mus musculus with 12 samples.

Results

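Transcript levels of 9 genes, the forkhead factors Foxo1, Foxo3 and Foxo4 and the brakes on the growth kinase complex mTORC1, Ddit4, Tsc1, Tsc2, Sesn1, Sesn2 and Sesn3, were examined in sorted mouse spermatogonia and in whole testes. They were found on the array by their gene names, and they make up 9 of 36315 gene names and 11 of 55681 probes. Total RNA of 12 samples was hybridised to 1-colour Agilent expression arrays, 3 each of GFRα1+, NGN3+ and KIT+ spermatogonia and of whole testes. GFRα1+ spermatogonia were the GFP+ cells of GFRα1-EGFP mice, and each sample came from 1 mouse. NGN3+ spermatogonia were the GFP+/KIT- cells of Ngn3-EGFP mice, with cells of 2 mice pooled in each sample. KIT+ spermatogonia were the GFP+/KIT+ cells of the same Ngn3-EGFP line, in which the GFP outlasts expression of the gene, and each sample came from 1 mouse. All mice were C57BL/6 of 10 to 11 weeks. The genotype of the mice that gave the whole testes is not stated apart from that strain. About 10000 to 20000 sorted cells, or 500000 cells of whole testes, were used for each array, and 25 ng of RNA was labelled. GFRα1+ cells therefore differ from the other sorted cells in reporter line as well as in stage, and NGN3+ samples differ from both others in being pools.

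FOXO proteins are transcription factors that the kinase AKT keeps out of the nucleus when growth factor signalling is high. Foxo1 is a known marker of undifferentiated spermatogonia in the mouse and is needed to keep the stem cell pool. mTORC1 drives protein synthesis and growth once it is switched on by the small GTPase RHEB. TSC1 and TSC2 form the complex that inactivates RHEB, DDIT4 (also called REDD1) acts through that complex, and the sestrins restrain mTORC1 mainly through the amino acid sensing branch. In mouse spermatogonial progenitors Ddit4 is known as a target of ZBTB16 that holds mTORC1 down, and loss of Tsc1 or Tsc2 in germ cells is known to exhaust them.

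The sequences below are those on which the measurement of Foxo1 rests and those at the starts of Ddit4 and Sesn1, which had the widest range of levels among sorted cells of the members with a promoter entry. The main Foxo1 probe matches chr3:52150183-52150242 of mm9 on the plus strand, and its second probe lies 3106 bases further along the gene.
Foxo1 probe: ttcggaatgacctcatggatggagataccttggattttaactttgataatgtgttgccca
Promoters, from RefSeq with GRCm38.p6 coordinates, run from 250 bases before to 50 bases after the start site. Of the 9 genes, 8 matched an entry, Sesn1 with 2 start sites, which made 9 promoters, and Foxo4 matched none. Motifs searched on both strands were the FOXO core TGTTTAC, the ATF4 composite TGATGNAA, the E-box CACGTG, the HIF core ACGTG, which lies within the E-box, and the CCAAT box. Capitals mark the FOXO core and CCAAT boxes in Sesn1 and the HIF core and CCAAT boxes in Ddit4, which read ATTGG on the opposite strand. The windows are chr10:41810324-41810623 (plus strand) and chr10:41887189-41887488 (plus strand) for Sesn1 and chr10:59951721-59952020 (minus strand) for Ddit4.
Sesn1 first start site: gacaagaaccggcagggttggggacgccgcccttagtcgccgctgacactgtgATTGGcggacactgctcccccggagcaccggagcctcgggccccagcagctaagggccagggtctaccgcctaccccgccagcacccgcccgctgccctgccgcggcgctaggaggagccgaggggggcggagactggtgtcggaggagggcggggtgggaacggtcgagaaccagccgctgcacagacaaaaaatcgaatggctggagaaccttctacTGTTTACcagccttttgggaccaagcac
Sesn1 second start site: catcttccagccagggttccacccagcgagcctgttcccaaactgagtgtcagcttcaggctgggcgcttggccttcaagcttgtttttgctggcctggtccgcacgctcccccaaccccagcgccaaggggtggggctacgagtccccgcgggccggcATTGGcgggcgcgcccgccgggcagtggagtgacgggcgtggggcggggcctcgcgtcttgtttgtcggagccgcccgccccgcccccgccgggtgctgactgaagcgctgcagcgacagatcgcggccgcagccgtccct
Ddit4: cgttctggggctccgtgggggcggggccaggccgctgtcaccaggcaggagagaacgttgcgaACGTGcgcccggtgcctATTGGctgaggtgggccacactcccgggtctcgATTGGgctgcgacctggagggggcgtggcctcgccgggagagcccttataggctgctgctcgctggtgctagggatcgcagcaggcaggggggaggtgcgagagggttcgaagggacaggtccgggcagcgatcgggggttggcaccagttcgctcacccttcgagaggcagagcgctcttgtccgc
The FOXO core was present in 1 of the 9 promoters, at the first Sesn1 start site, where it began 22 bases after the start. Over all 32851 promoters, 3.65% held it. The HIF core was present once, 187 bases before the start of Ddit4, against 19.6% of all promoters. CCAAT boxes were present in 6 of the 9 promoters, those of Foxo1, Sesn2, Sesn3, Ddit4 and both of Sesn1, against 37.4% of all promoters. The ATF4 composite and the E-box were in none of the 9, against 3.97% and 7.15% of all promoters. These matches describe letters only.

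Levels are given as log2 of the background-corrected intensity minus the 75th percentile of the same array, so that 0 is the level of that percentile. Between 50.1% and 65.1% of probes were well above background on an array, and arrays of 1 group correlated at 0.98 to 0.99. The detected share was 50.1% to 50.8% in GFRα1+, 59.5% to 65.1% in NGN3+ and 54.8% to 62.0% in KIT+ cells. The 75th percentile intensity was 318 to 340, 473 to 675 and 568 to 633 in the same order. GFRα1+ replicate 3, which shared a slide with the NGN3+ and KIT+ samples, had 50.8% and 340. How far this difference enters the ratios was not tested, and other scalings are given below. The reporter genes followed the labels. Gfra1 averaged 1.65 in GFRα1+, -1.22 in NGN3+ and -3.38 in KIT+ cells, Neurog3 averaged 4.13, 5.23 and 2.77 in the same order, and Kit averaged 1.50, 1.96 and 4.55. Markers of other cells moved with the groups. Of 17 genes that mark spermatids, 17 passed as higher in NGN3+ cells, where their summed linear level was 1429 to 1775, against 39.4 to 77.4 on GFRα1+ arrays, and the sums were 1727 to 2211 in KIT+ cells and 6434 to 7836 in whole testes. All 7 peritubular myoid genes were also higher in NGN3+ cells, with sums of 17.4 to 30.9 there and 4.13 to 5.12 in GFRα1+ cells, and 5 of the 7 were lower in KIT+ than in NGN3+ cells, with KIT+ sums of 16 to 21.0. Of 12 Sertoli genes tested, 8 were higher and 1 was lower in NGN3+ than in GFRα1+ cells, while the summed level was 42.6 to 56.3 in NGN3+ and 59.6 to 66.7 in GFRα1+ cells. Of 12 immediate early genes that cell dissociation is known to induce, 11 were tested and all 11 were lower in NGN3+ cells, with sums of 25.0 to 33.3 there against 74.1 to 77.8 in GFRα1+ cells, and of 11.0 to 13.6 in KIT+ cells. Endothelial sums, over 7 genes, were 7.97 to 13.9 on GFRα1+, 4.85 to 8.24 on NGN3+ and 4.37 to 4.66 on KIT+ arrays. Leydig sums, over 7 genes, were 6.37 to 11.2, 3.48 to 4.89 and 4.66 to 4.75 in the same order. Of those Leydig genes, 4 were not well above background on any sorted array. Between GFRα1+ and NGN3+ cells 1 of 5 endothelial genes tested rose and 1 fell. Among 3 Leydig genes tested there, 1 rose and 1 fell. The part of these differences in the results below was not tested. In bulk RNA of this kind, fewer cells of a type and less RNA per cell cannot be told apart.

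The slides crossed the groups only in part. All NGN3+ and KIT+ samples and GFRα1+ replicate 3 were on the second slide, GFRα1+ replicates 1 and 2 and whole testes replicate 1 were on the first, and the other whole testes were on the third. KIT+ and NGN3+ cells were thus compared within 1 slide, whereas NGN3+ and whole testes shared none. When slide entered the fit as a block, ratios of NGN3+ or KIT+ over GFRα1+ cells rested on GFRα1+ replicate 3 alone among GFRα1+ arrays. Blocked ratios over whole testes rested on whole testes replicate 1. For NGN3+ and KIT+ cells these ran through the GFRα1+ arrays of both slides, and they are imprecise.

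From GFRα1+ to NGN3+ spermatogonia the brakes split. Ddit4 rose 1.81-fold while Sesn2 fell 2.55-fold, Foxo3 fell 2.15-fold, and Tsc1, Tsc2 and Sesn1 fell by 1.41-fold to 1.51-fold. In all, 1 of 9 genes rose and 5 fell (limma, Benjamini-Hochberg adjusted p under 0.05), against 20% of 23794 genes tested that rose and 36.4% that fell. The arrays of the 2 groups did not overlap for 2 genes that were higher and 6 that were lower, against 21.6% and 41% of all genes. With slide as a block, 3 of the falls passed (Foxo3, Sesn1 and Sesn2). These ratios equal those on the second slide alone, since both rest on GFRα1+ replicate 3. The share that fell over all genes depended on the scaling. The median log2 ratio of all genes was -0.19, and 35.5% of the calls were rises. With the 75th percentile taken over probes detected on every array the median was -0.02 and 48.9% of the calls were rises. Relative to the median of all genes the ratios of the 9 genes ran from -1.16 for Sesn2 to 1.05 for Ddit4, and their own median was -0.54 before that subtraction.

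From NGN3+ to KIT+ spermatogonia Ddit4, Foxo1, Sesn1, Tsc1 and Tsc2 fell, by 8.57-fold for Ddit4 and 2.89-fold for Sesn1, and no member rose. These were 5 of 9 genes that fell and 0 that rose, against 17% and 17.5% of 24114 genes tested. Arrays did not overlap for 6 lower genes and no higher one, against 24.3% and 26.2% of all genes. Without adjustment, no member rose at p under 0.05 in limma or in the methods' t-test either. The median ratio of the 9 genes was -0.83, and that of all genes was 0.05. Set directly against GFRα1+ cells, KIT+ cells had all 9 genes lower, by 1.37-fold (Sesn3) to 4.73-fold (Ddit4), where 39.5% of 23005 genes tested fell and 26.6% rose. Arrays did not overlap for any of the 9, against 41.8% of all genes that lay lower in this way and 28.5% that lay higher. This comparison shares its samples with both steps and is their sum.

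**Figure D1:**
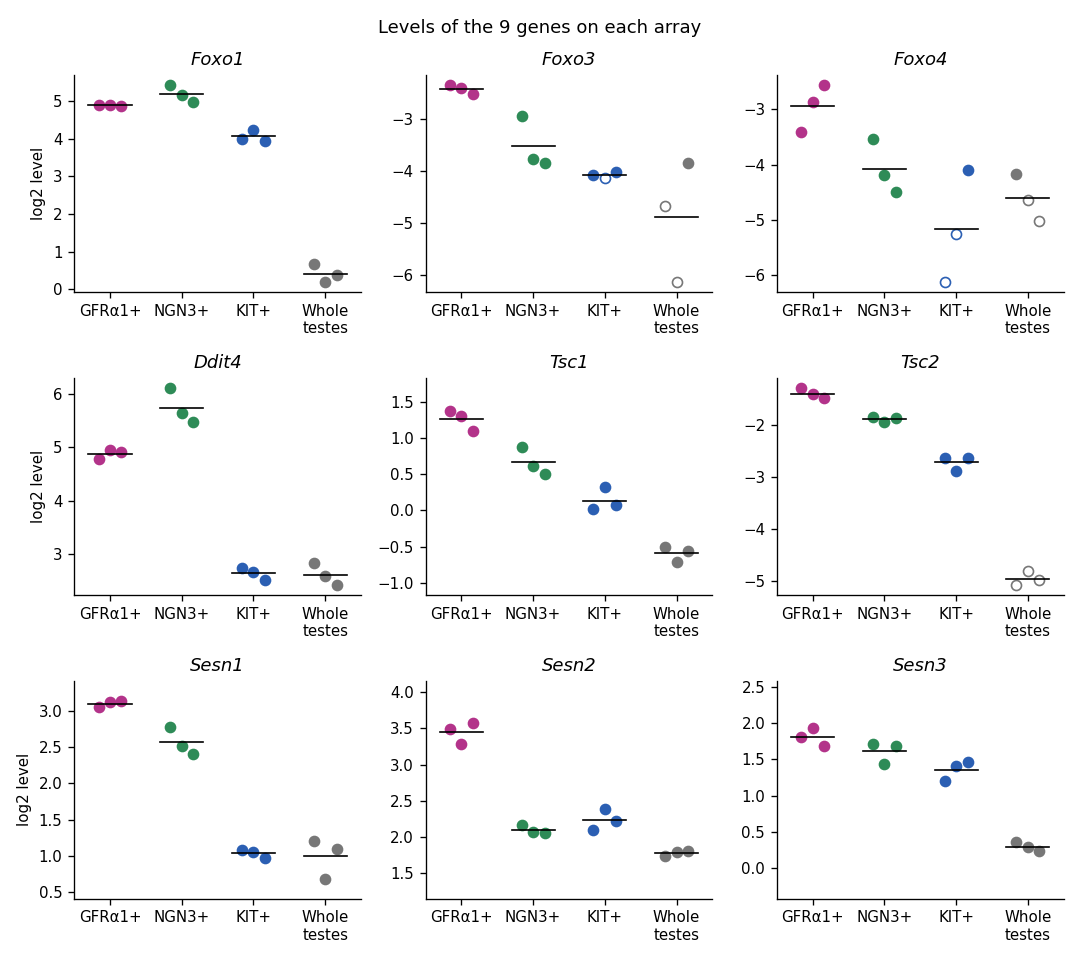
Log2 level (vertical axis, relative to the 75th percentile of each array) of the 9 genes on each of the 12 arrays, grouped by cell fraction; bars are group means and open circles are arrays on which the probe was not well above background. Ddit4 averages 5.74 in NGN3+ and 2.64 in KIT+ cells, while Foxo3, Foxo4 and, in whole testes, Tsc2 sit near the background.

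Foxo1, the FOXO factor best known in these cells, was present at every stage. Its level was 4.90, 4.88 and 4.87 in GFRα1+ cells, 5.44, 5.16 and 4.97 in NGN3+ cells and 3.99, 4.24 and 3.95 in KIT+ cells. All 3 NGN3+ arrays lay above all 3 GFRα1+ arrays, and all KIT+ arrays lay below both. The ratio of NGN3+ over GFRα1+ cells was 0.30 ± 0.14 on the log2 scale (SE, 95% interval -0.01 to 0.62) and did not pass (limma adjusted p = 0.0902). It passed under other scalings, at 0.47 with the percentile over detected probes (limma adjusted p = 0.0106) and at 0.59 with quantile normalization (limma adjusted p = 0.00186). Without NGN3+ replicate 3 it was 0.41 (limma adjusted p = 0.0418), and with slide as a block 0.32 (limma adjusted p = 0.239). The second probe gave 0.16 ± 0.13 (limma adjusted p = 0.310), with overlapping groups. From NGN3+ to KIT+ cells Foxo1 fell 2.19-fold, a log2 ratio of -1.13 ± 0.14 (limma adjusted p = 0.000430), and the second probe gave -1.19 ± 0.13 (limma adjusted p = 0.000223). The 2 probes correlated at 0.999 over the 12 arrays.

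Foxo3, a relative of Foxo1 that is known in mice for holding oocytes in their resting state, was measured near the background. GFRα1+ cells had -2.34, -2.41 and -2.51, NGN3+ cells had -2.95, -3.77 and -3.85 and KIT+ cells had -4.07, -4.14 and -4.02, of which 2 of 3 were well above background. The 3 groups did not overlap. Foxo3 fell 2.15-fold in NGN3+ cells, at -1.10 ± 0.22 over GFRα1+ cells (limma adjusted p = 0.00282). Within the second slide, where GFRα1+ cells had 1 array whose spread was taken from the other groups, the ratio was -1.01 (limma adjusted p = 0.0534). With whole testes in the fit the same ratio had an adjusted p of 0.0580 in limma. The KIT+ step of -0.56 ± 0.22 did not pass (limma adjusted p = 0.0807), while it did without NGN3+ replicate 3, at -0.72 (limma adjusted p = 0.0441).

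Foxo4, the X-linked member of the family, had 2 probes that share 52 of their 60 bases and are not independent. Its level was -3.41, -2.87 and -2.55 in GFRα1+ cells, -3.54, -4.19 and -4.50 in NGN3+ cells and -6.13, -5.25 and -4.09 in KIT+ cells, where 1 of 3 arrays was well above background. NGN3+ arrays all lay below GFRα1+ arrays, and KIT+ arrays overlapped those of NGN3+ cells. Neither step passed, with -1.13 ± 0.49 in NGN3+ over GFRα1+ (limma adjusted p = 0.0756) and -1.08 ± 0.49 in KIT+ over NGN3+ (limma adjusted p = 0.124). The other probe gave -1.25 ± 0.49 (limma adjusted p = 0.0563) and -1.44 ± 0.49 (limma adjusted p = 0.0524), with no overlap at either step. The first step passed without KIT+ replicate 1 (limma adjusted p = 0.0360) or KIT+ replicate 3 (limma adjusted p = 0.0255), which take no part in the ratio but set the spread. It also passed with normexp background correction, at -0.67 (limma adjusted p = 0.00371), and in the methods' t-test on the other probe, at -1.25 (adjusted p = 0.0210). The second step passed without KIT+ replicate 3, at -1.61 (limma adjusted p = 0.0193). The ratio of KIT+ over GFRα1+ cells was -2.21 ± 0.48 (limma adjusted p = 0.00328), over a range of -2.74 to -1.09 among alternatives, and the call was lost with array weights, at -1.24 (limma adjusted p = 0.0501).

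Foxo6, the fourth mammalian FOXO gene, which is known mainly from brain, is given beside the members because it belongs to the family. Its main probe read 5.60, 5.43 and 5.60 in GFRα1+ cells, 3.72, 3.49 and 3.44 in NGN3+ cells and 3.17, 3.25 and 3.10 in KIT+ cells. Foxo6 thus fell 3.98-fold from GFRα1+ to NGN3+ cells, at -1.99 ± 0.11 (limma adjusted p = 2.83e-06), and again at the KIT+ step, at -0.38 ± 0.11 (limma adjusted p = 0.0297). The other Foxo6 probe gave -1.90 ± 0.12 and -0.44 ± 0.12 for the same steps. Of the FOXO genes, Foxo1 was the one with a positive ratio at the first step.

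Tsc1, the subunit that stabilises TSC2, fell at each step. It stood at 1.37, 1.31 and 1.10 in GFRα1+ cells, at 0.88, 0.62 and 0.50 in NGN3+ cells and at 0.02, 0.32 and 0.07 in KIT+ cells. No group overlapped another. NGN3+ cells were 1.51-fold lower than GFRα1+ cells, at -0.59 ± 0.14 (limma adjusted p = 0.00701). The ratio was -0.43 with slide as a block (limma adjusted p = 0.106) and within the second slide (limma adjusted p = 0.140). KIT+ cells were 1.44-fold lower than NGN3+ cells, at -0.53 ± 0.14 (limma adjusted p = 0.0187), and this call was lost without NGN3+ replicate 1 at -0.42 (limma adjusted p = 0.0613), without KIT+ replicate 1 at -0.47 (limma adjusted p = 0.0640) or without KIT+ replicate 3 at -0.50 (limma adjusted p = 0.0686), and in the methods' t-test (adjusted p = 0.0635).

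Tsc2, the subunit that carries the GTPase-activating domain, followed Tsc1. Its levels were -1.28, -1.40 and -1.48 in GFRα1+ cells, -1.83, -1.94 and -1.86 in NGN3+ cells and -2.63, -2.89 and -2.62 in KIT+ cells, with no overlap between groups. The NGN3+ step was -0.49 ± 0.11 (limma adjusted p = 0.00555), or -0.40 with slide as a block (limma adjusted p = 0.0737) and within the second slide (limma adjusted p = 0.100). At the KIT+ step Tsc2 fell 1.78-fold, at -0.83 ± 0.11 (limma adjusted p = 0.000647), within 1 slide. Tbc1d7, the third subunit of the complex, fell at the first step, at -0.37 ± 0.13 (limma adjusted p = 0.0355), and had a ratio of 0.26 ± 0.13 at the second (limma adjusted p = 0.169).

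Ddit4, an inhibitor of mTORC1 that hypoxia, energy shortage and glucocorticoids are known to induce, peaked in NGN3+ cells. NGN3+ arrays read 6.11, 5.64 and 5.47, GFRα1+ arrays read 4.78, 4.94 and 4.91 and KIT+ arrays read 2.74, 2.66 and 2.52. Each group lay wholly apart from the others. The rise into NGN3+ cells was 0.86 ± 0.16 (limma adjusted p = 0.00240). It passed under every alternative tried, over a range of 0.67 to 1.15, and was 0.83 within the second slide (limma adjusted p = 0.0412). The fall into KIT+ cells was -3.10 ± 0.16 (limma adjusted p = 1.61e-05), over a range of -3.29 to -2.91. KIT+ cells ended 4.73-fold below GFRα1+ cells, at -2.24 ± 0.16 (limma adjusted p = 4.51e-06). Among NGN3+ samples, replicate 3 had the lowest Ddit4 (5.47) and Neurog3 (4.78) and the highest Kit (2.60), and replicate 1 had the highest Ddit4 (6.11) and Neurog3 (5.63) and the lowest Kit (1.47). This order was not particular to Ddit4, since Foxo1, Foxo3, Foxo4, Tsc1 and Sesn1 also fell from replicate 1 to replicate 3. The 75th percentile intensity of these arrays rose in the same order (473, 551 and 675). The cause was not tested. Ddit4l, a paralogue of Ddit4, was not well above background on any GFRα1+ array, so its rise in NGN3+ cells (limma adjusted p = 0.000320) has no fold.

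Of the sestrins, Sesn1 fell at both steps, Sesn2 fell at the first and Sesn3 passed at neither. Sesn1, which p53 and FOXO factors are known to induce, had 3.05, 3.12 and 3.14 in GFRα1+ cells, 2.79, 2.51 and 2.40 in NGN3+ cells and 1.09, 1.05 and 0.97 in KIT+ cells, with no overlap. The first step was -0.54 ± 0.12 (limma adjusted p = 0.00479), or -0.57 within the second slide (limma adjusted p = 0.0510). At the second step Sesn1 fell 2.89-fold, at -1.53 ± 0.12 (limma adjusted p = 4.92e-05).

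Sesn2, the cytosolic leucine sensor that ATF4 and p53 are known to induce, fell at the first step and did not pass at the second. It had 3.49, 3.29 and 3.57 in GFRα1+ cells, 2.16, 2.06 and 2.06 in NGN3+ cells and 2.10, 2.38 and 2.23 in KIT+ cells. NGN3+ and KIT+ arrays overlapped, and both lay below all GFRα1+ arrays. The first step was -1.35 ± 0.12 (limma adjusted p = 2.73e-05), and it was -1.47 within the second slide (limma adjusted p = 0.000756). The second was 0.14 ± 0.12, with a 95% interval of -0.13 to 0.41 (limma adjusted p = 0.400). Sesn3, known as a FOXO target, was 1.81, 1.93 and 1.68 in GFRα1+ cells, 1.71, 1.44 and 1.69 in NGN3+ cells and 1.20, 1.41 and 1.46 in KIT+ cells. Its neighbouring groups overlapped and neither step passed, at -0.20 ± 0.12 (limma adjusted p = 0.209) and -0.26 ± 0.13 (limma adjusted p = 0.150). Over both steps Sesn3 was -0.46 ± 0.12 (limma adjusted p = 0.0105), which was -0.33 with slide as a block (limma adjusted p = 0.138).

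**Figure D2:**
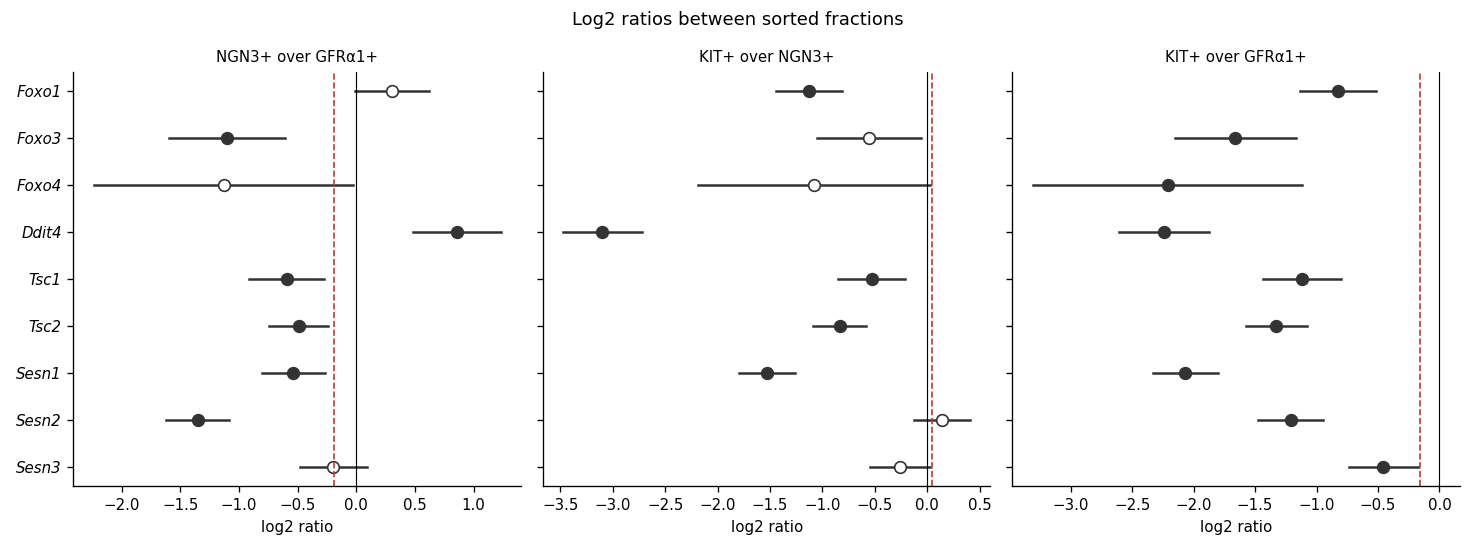
Log2 ratio (horizontal axis) of each of the 9 genes between sorted fractions, with 95% intervals from limma; filled points passed an adjusted p of 0.05 and the dashed line is the median of all genes tested. Ddit4 stands at 0.86 in NGN3+ over GFRα1+ and at -3.10 in KIT+ over NGN3+, and all 9 genes are below 0 in KIT+ over GFRα1+.

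**Figure D3:**
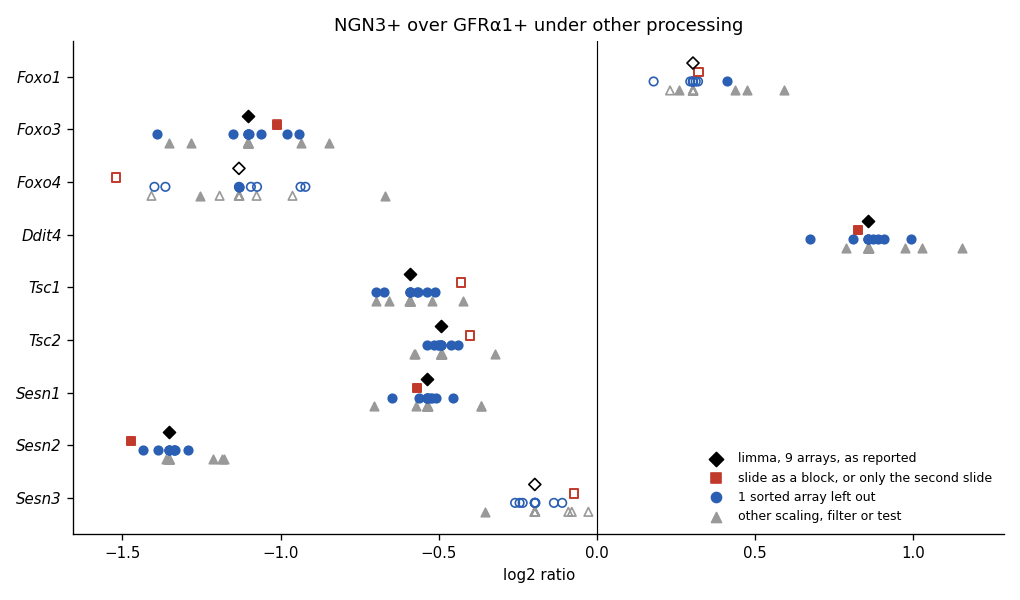
Log2 ratio (horizontal axis) of NGN3+ over GFRα1+ cells for the 9 genes under each processing alternative; filled symbols passed an adjusted p of 0.05. The slide block and the second slide alone gave the same ratios, so that their squares coincide and are filled where either passed. Ddit4 and Sesn2 passed under all alternatives, and Tsc1 and Tsc2 are open where the slide enters the fit.

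Against whole testes most of the 9 genes were higher in spermatogonia. GFRα1+ cells had all 9 genes higher (limma), where 49.9% of 24186 genes tested rose. NGN3+ cells had 8 of 9 higher, where 44.1% of 25344 genes rose. KIT+ cells had 5 of the 7 tested higher, where 43.3% of 24696 genes rose, and Foxo3 and Foxo4 were not tested because neither group was well above background on all its arrays. No member was called lower in any of the 3, with all-gene shares of 37.5%, 39.6% and 41.6% called lower. At an unadjusted p under 0.05 no member was lower in limma or in the methods' t-test. Genes whose arrays did not overlap made up 49.8%, 45.5% and 44.9% of all genes on the higher side and 37.5%, 41% and 42.9% on the lower side. Medians of all genes were 0.39, 0.13 and 0.05, and those of the members were 2.10, 1.37 and 0.73. The 125 genes of the pathway lists described below had medians of 2.004, 1.51 and 1.41 in the same order. Of these, 95 of 122 tested, 93 of 122 and 87 of 120 were higher, and 17, 21 and 21 were lower. A higher level than in whole testes was thus not particular to the members. Whole testes are mostly later germ cells and somatic cells, and these ratios also carry that makeup.

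Foxo1 had the widest measured gap. Whole testes read 0.66, 0.19 and 0.39, which put GFRα1+ cells 22.2-fold, NGN3+ cells 27.4-fold and KIT+ cells 12.5-fold above them, and no sorted array overlapped. The log2 ratios were 4.47 ± 0.15, 4.78 ± 0.15 and 3.65 ± 0.15 (limma adjusted p = 3.08e-10, 2.35e-09 and 4.36e-09). Tsc2 was not well above background on any whole testes array, where it read -5.08, -4.81 and -4.98. In the processing used here its level was at least 9.48-fold higher in GFRα1+, 6.74-fold in NGN3+ and 3.78-fold in KIT+ cells than in whole testes. The limit was the lowest signal well above background on each whole testes array, or that of Tsc2 where higher. Among the alternatives the lowest Tsc2 log2 ratios were 1.54, 1.04 and 0.46 in the same order. These limits therefore do not hold under every processing. Tsc1, at -0.51, -0.71 and -0.56 in whole testes, was 3.61-fold, 2.39-fold and 1.66-fold higher in the same order.

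Ddit4 and Sesn1 were above whole testes in GFRα1+ and NGN3+ cells and did not pass in KIT+ cells. Ddit4 in whole testes was 2.83, 2.59 and 2.41. GFRα1+ cells were 4.81-fold and NGN3+ cells 8.72-fold above whole testes, whereas KIT+ arrays overlapped them, at 0.03 ± 0.17 with a 95% interval of -0.34 to 0.40 (limma adjusted p = 0.889). Sesn1 was 1.21, 0.69 and 1.10 in whole testes, which gave 4.30-fold in GFRα1+ cells, 2.96-fold in NGN3+ cells and a log2 ratio of 0.04 ± 0.15 in KIT+ cells, with a 95% interval of -0.29 to 0.36 (limma adjusted p = 0.819). The sign of both KIT+ ratios turned with the percentile over detected probes and with slide as a block.

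Sesn3, at 0.36, 0.29 and 0.23 in whole testes, was 2.86-fold, 2.49-fold and 2.08-fold higher in GFRα1+, NGN3+ and KIT+ cells. Sesn2, at 1.73, 1.79 and 1.80, was 3.19-fold higher in GFRα1+ cells. In NGN3+ and KIT+ cells it was 1.25-fold and 1.38-fold higher, and both calls were lost with slide as a block, at 0.18 (limma adjusted p = 0.479) and 0.32 (limma adjusted p = 0.212). With the percentile over detected probes Sesn2 was 0.0965 in NGN3+ cells (limma adjusted p = 0.353) and 0.19 in KIT+ cells (limma adjusted p = 0.0732) over whole testes, and neither passed. The NGN3+ call was also lost without NGN3+ replicate 1, at 0.29 (limma adjusted p = 0.0543). Foxo3 read -4.68, -6.15 and -3.86 in whole testes, with 1 array well above background. It was higher by 2.47 ± 0.45 in GFRα1+ cells (limma adjusted p = 0.000319) and by 1.37 ± 0.46 in NGN3+ cells (limma adjusted p = 0.0160), and the NGN3+ call was lost without NGN3+ replicate 1, at 1.09 (limma adjusted p = 0.0690). That Foxo3 ratio was 0.0388 with normexp background correction (limma adjusted p = 0.810), 0.86 with array weights (limma adjusted p = 0.0608) and 1.30 with slide as a block (limma adjusted p = 0.291), and the methods' t-test did not call it either (adjusted p = 0.151). Foxo4 read -4.17, -4.65 and -5.02, with 1 array well above background, and was higher by 1.67 ± 0.46 in GFRα1+ cells (limma adjusted p = 0.00529). With slide as a block this was 1.03 (limma adjusted p = 0.203). In NGN3+ cells the Foxo4 ratio was 0.54 ± 0.46 (limma adjusted p = 0.297).

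**Figure D4:**
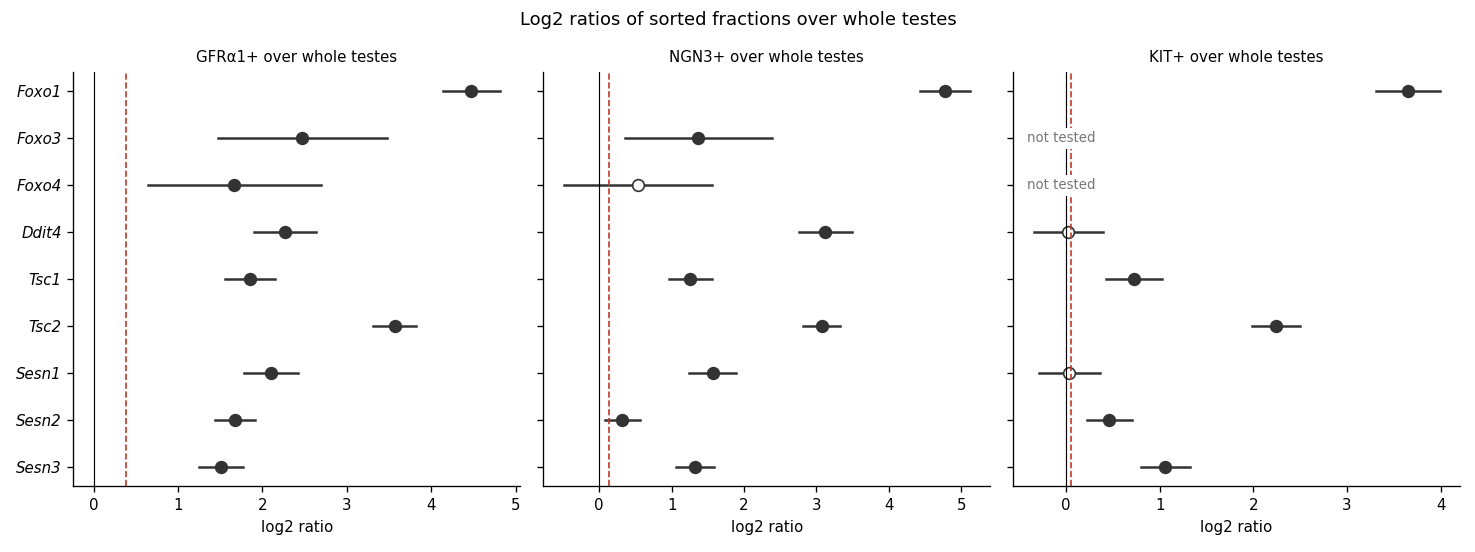
Log2 ratio (horizontal axis) of each gene in GFRα1+, NGN3+ and KIT+ cells over whole testes, with 95% intervals from limma; filled points passed an adjusted p of 0.05 and the dashed line is the median of all genes tested. The whole testes signals behind Tsc2 were not well above background. Foxo1 lies at 4.47, 4.78 and 3.65, and Ddit4 and Sesn1 lie near 0 in KIT+ cells.

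The rest of the pathway was read from 8 lists with 125 genes, all on the array. At the first step 14 of 120 tested rose and 59 fell, with a median of -0.32, and at the second 30 of 119 rose and 31 fell, with a median of 0.07. Over all genes, 20% rose and 36.4% fell at the first step, with a median of -0.19, and 17.5% rose and 17% fell at the second, with a median of 0.05. The kinase gene passed at neither step. Mtor averaged 2.18 in NGN3+ and 2.27 in GFRα1+ cells, a ratio of -0.09 ± 0.09 (limma adjusted p = 0.402), and 2.37 in KIT+ cells, a ratio of 0.19 ± 0.09 over NGN3+ (limma adjusted p = 0.143). Of 12 genes of the mTOR complexes 1 rose and 4 fell at the first step, and 1 rose and 3 fell at the second, that is 8.33% and 33.3% and then 8.33% and 25.0%, against 20% and 36.4% and then 17.5% and 17% of all genes. Rptor, the defining subunit of mTORC1, was -0.07 ± 0.12 in NGN3+ over GFRα1+ cells (limma adjusted p = 0.648) and fell in KIT+ cells, at -0.95 ± 0.12 (limma adjusted p = 0.000565). Rictor, the defining subunit of mTORC2, fell at both steps, at -0.43 ± 0.10 and -0.52 ± 0.10. Prr5l, an mTORC2 partner, rose by 0.78 ± 0.19 at the first and fell at the second, at -1.20 ± 0.20. Rheb, the GTPase that the TSC complex inactivates, fell at the first step, at -0.56 ± 0.18 (limma adjusted p = 0.0261), and was 0.45 ± 0.18 at the second (limma adjusted p = 0.0841). Its GFRα1+ arrays read 1.96, 1.85 and 1.22, and its NGN3+ arrays 1.10, 1.11 and 1.16. GFRα1+ replicate 3, the only one on the NGN3+ slide, thus lay close to the NGN3+ arrays, and the fall rests mainly on the other GFRα1+ arrays.

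Upstream, 2 of 16 PI3K and AKT genes rose and 7 fell at the first step, and 5 rose and 5 fell at the second, against 20% and 36.4% and then 17.5% and 17% of all genes. Akt1 rose at both, by 0.46 ± 0.12 (limma adjusted p = 0.0121) and 0.38 ± 0.12 (limma adjusted p = 0.0396). Akt2 passed at neither, with -0.33 ± 0.13 and -0.22 ± 0.13. Pik3ca, a catalytic PI3K subunit, fell at both, at -1.06 ± 0.14 and -1.27 ± 0.14. Pik3cd, another catalytic subunit, fell in KIT+ cells, at -2.23 ± 0.14, as did the AKT-related kinase Sgk1, at -1.51 ± 0.13. Phlpp1, a phosphatase of AKT, rose by 1.31 ± 0.27 at the first step.

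The amino acid branch, on which sestrins act, held 18 genes of GATOR2, the Rag GTPases and Ragulator, of which none rose and 12 fell at the first step, where 20% of all genes rose and 36.4% fell, with Seh1l at -0.89 ± 0.11, Mios at -0.64 ± 0.11, Lamtor1 at -0.68 ± 0.13 and the Rag regulator Flcn at -0.56 ± 0.11. At the second step 6 rose and 4 fell, against 17.5% and 17% of all genes, with Lamtor3 at 0.75 ± 0.10 and Fnip1 at 0.87 ± 0.14. Rragd passed as lower, but 1 of its 3 KIT+ arrays was well above background, so the size of its fall is imprecise. Other mTORC1 brakes had 1 rise and 5 falls among 17 tested, then 4 rises and 3 falls, which lie near or below the shares of all genes (20% and 36.4%, then 17.5% and 17%) except for the 4 rises. Castor2 fell at the first step, at -0.79 ± 0.12, and rose at the second, by 0.86 ± 0.12, where the arginine sensor Castor1 rose by 1.62 ± 0.19. The 14 mTORC1 substrate and translation genes all passed at the first step, with 5 rises and 9 falls, where 20% of all genes rose and 36.4% fell. Grb10 rose at both, by 1.27 ± 0.16 and 1.20 ± 0.16, and Rps6kb1, the S6 kinase gene, fell and then rose, at -0.58 ± 0.09 and 0.74 ± 0.09.

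Of genes that FOXO factors are known to activate, 17 were tested at the first step, of which 3 rose and 6 fell, and of 16 tested at the second 5 rose and 8 fell, with medians of -0.15 and -0.55 against -0.19 and 0.05 for all genes. The shares at the first step were those of all genes (20% and 36.4%) to within 1 gene, and at the second 17.5% of all genes rose and 17% fell. In KIT+ over NGN3+ cells the cell cycle inhibitor Cdkn1b fell by 3.85 ± 0.21, Bcl6, a transcriptional repressor, fell by 3.07 ± 0.16 and the ubiquitin ligase Fbxo32 fell by 3.06 ± 0.16 on the log2 scale. Gadd45b rose there by 1.66 ± 0.14, Bcl2l11, which promotes apoptosis, rose by 1.0 ± 0.12 and Gadd45a rose by 0.85 ± 0.12. At the first step Cdkn1b was 0.38 (limma adjusted p = 0.149), Fbxo32 was 0.31 (limma adjusted p = 0.129), and Bcl6 rose by 0.54 (limma adjusted p = 0.0174). Gadd45a, Ret, Trim63 and Cdkn1a fell at the first step, at -0.91, -1.93, -1.89 and -1.22. Ret is also the GDNF co-receptor and a marker of GFRα1+ cells. Among 15 FOXO partners and modifiers none rose and 9 fell at the first step, against 20% and 36.4% of all genes, Foxo6 and the acetyltransferases Crebbp (-0.73 ± 0.10) and Ep300 (-0.66 ± 0.09) among them. At the second 3 rose and 4 fell, against 17.5% and 17% of all genes, with the deubiquitinase Usp7 at 0.62 ± 0.11 and the deacetylase Sirt1 at 0.58 ± 0.10. The ATF4 and p53 stress list, to which Ddit4 and Sesn2 are close in known regulation, had 3 rises and 10 falls among 15 at the first step and 3 of each at the second, against 20% and 36.4% and then 17.5% and 17% of all genes. Asns rose by 0.82 ± 0.09 and Chac1 fell at -1.53 ± 0.12 in NGN3+ over GFRα1+ cells. Trib3, an ATF4 target that binds AKT, fell in KIT+ over NGN3+ cells, at -2.35 ± 0.18.

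**Figure D5:**
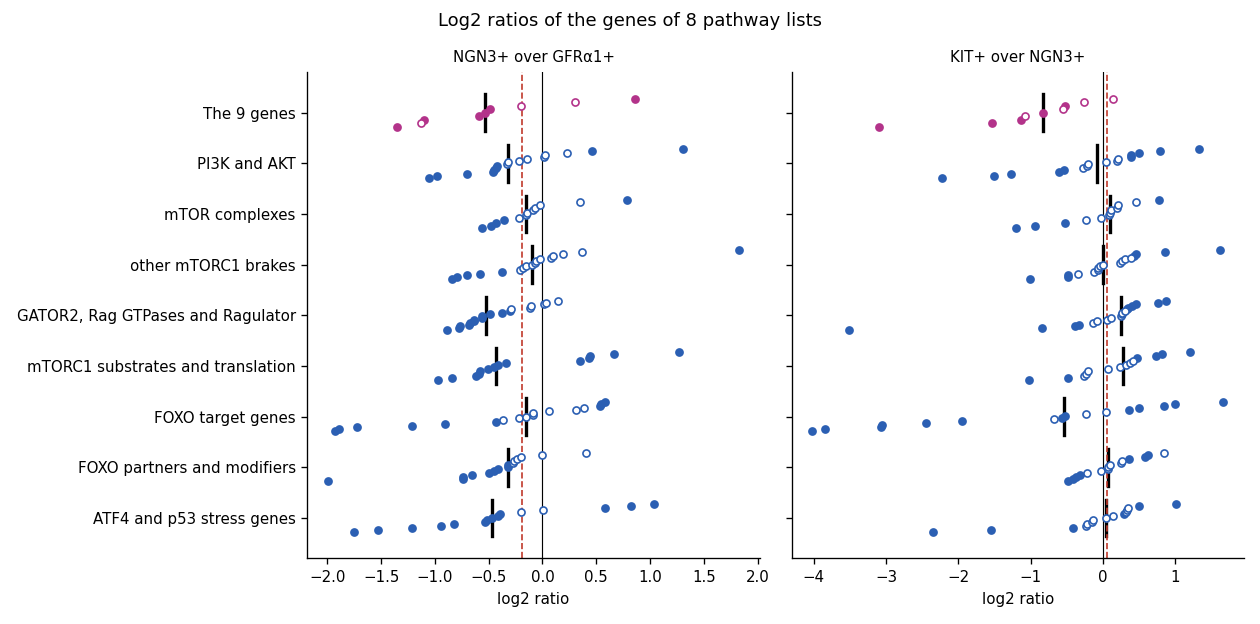
Log2 ratio (horizontal axis) of every gene of 8 pathway lists and of the 9 members, for NGN3+ over GFRα1+ and KIT+ over NGN3+ cells; filled points passed an adjusted p of 0.05, bars are list medians and dashed lines are the medians of all genes. The members' medians are -0.54 and -0.83, and the FOXO target list has medians of -0.15 and -0.55.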

How the data were processed

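The arrays carried 55681 probes after control spots were left out. The authors deposited scanner files with background-corrected intensity (Agilent Feature Extraction, versions 10.7.3.1 and, on the second slide, 10.7.1.1) and a log2 table scaled to the 75th percentile of each array, made in GeneSpring per the study's methods. The intensity was taken to log2, the 75th percentile over all probes of the array was subtracted, and outlier spots were dropped. The authors' log2 table matched these values within 0.01 up to 1 constant per array and served as an alternative. Gene names came from the files, updated through RefSeq tables. A gene was represented by its probe with the highest mean and was tested where Agilent's flag put that probe well above background on each of the 3 arrays of either group compared. Group means were fitted with limma 3.58.1 (R 4.3.3) and eBayes, on 9 sorted arrays for ratios between sorted cells and on 12 for ratios over whole testes, with Benjamini-Hochberg adjustment over all genes and a threshold of 0.05. The script was tested on simulated data. With 3 arrays against 3, an exact two-sided permutation test cannot go below p = 0.1, so none was used. Array number limits the precision. The members, lists and tests were chosen with earlier results of these data known. By rule the text names all members, their direct partners and, per pathway list, the genes with the smallest adjusted p, of which some are given. Some genes that the rule names are not reported here.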

Additional observations from a re-analysis of the deposited data

How the results depend on the processing

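Over 1244 results of the members under alternatives (scaling, background correction, filters, probes, weights, slide, replicate block, fitted arrays, test and leaving out each array), 1195 kept their direction and side of the threshold, 25 lost and 13 gained a call, and 11 turned sign, none of them called. Some of these results could hardly change. The authors' table holds the same values up to a constant, and some arrays left out take no part in the ratio. For NGN3+ over GFRα1+ cells the members called higher numbered 2, in place of 1, with quantile normalization, with the percentile over detected probes, with normexp and with array weights, and 1 to 2 with an array left out. The second slide alone, with 1 GFRα1+ array, gave the same ratios as slide as a block but not the same calls. The members called lower numbered 3 when slide entered as a block, in place of 5, and 5 to 6 with an array left out. They numbered 6 in the methods' t-test, with normexp and with array weights, and 4 with all 12 arrays in the fit. The cause was not tested.

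Signs that turned were all against whole testes. In KIT+ cells Ddit4 was -0.24 with the percentile over detected probes, -0.24 with slide as a block, -0.02 without KIT+ replicate 1 and -0.0737 without whole testes replicate 3, over a range of -0.0737 to 0.14 with an array left out. Sesn1 there was -0.0226 with quantile normalization, -0.23 with the percentile over detected probes, -0.19 with normexp, -0.0257 with array weights, -0.22 with slide as a block and -0.12 without whole testes replicate 2, over a range of -0.12 to 0.14 with an array left out. In NGN3+ cells Foxo4 was -0.49 with slide as a block. All these ratios with slide as a block rest on whole testes replicate 1 and run through GFRα1+ cells, so their turned signs carry little weight.

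Over all genes, 8658 falls in NGN3+ over GFRα1+ cells became 5615 when slide entered as a block and 5029 on the second slide alone, and 4767 rises became 2632 where every array compared had to be well above background. Array weights raised the rises in KIT+ over NGN3+ cells to 7701 in place of 4224 and the falls to 6828 in place of 4105. Requiring detection on every array compared gave 3972 rises in place of 6115 in KIT+ over GFRα1+ cells and 5094 falls in place of 9078 in GFRα1+ cells over whole testes. It gave no value for Foxo3 and Foxo4 where KIT+ cells or whole testes entered, nor for Tsc2 against whole testes.

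Same-numbered samples did not deviate together (correlations of -0.58 to 0.29), which gave no sign that the numbers pair samples. With 3 arrays per group this cannot show whether samples shared mice or sorts. With the replicate block, 1 member rose and 5 fell in NGN3+ over GFRα1+ cells, 5 fell in KIT+ over NGN3+ and 9 in KIT+ over GFRα1+ cells, and 9, 8 and 5 were higher than in whole testes, and no member's call changed. Foxo3 and Foxo4, close to background, are the least precise.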

Other observations

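Over the 12 arrays the 36 pairs of members correlated at 0.37 to 0.98, with a median of 0.75. Tsc2 and Sesn3 were the closest pair (0.98) and Foxo1 and Foxo4 the most distant. Among genes well above background on all arrays, 13722 of them for most members, the pattern of Foxo1 was most like Ttc3, Mat2b and Stau1 (Pearson r of 0.999 for each, n = 12 arrays). Ddit4 was most like Cracdl (0.996), Ly6g6d (0.995) and Tenm4 (0.993), and Sesn1 most like Amot (0.995), Pdpn (0.993) and Ubash3b (0.992). Sesn2 was most like Plvap (0.989), Mindy3 (0.986) and Naa30 (0.986). The nearest to Tsc2 were Zbtb8b (0.995), Rapgef2 (0.994) and Fam169a (0.994), and to Sesn3 Golgb1 (0.992), Rpl7a-ps8 (0.991) and Eml4 (0.990). Tsc1 was most like Gm4796 (0.995), Rpl21-ps7 (0.994) and Rps19-ps8 (0.994). For Foxo3 these were Snhg3 (0.938), Vasn (0.928) and Procr (0.927), and for Foxo4 Wdsub1 (0.905), Hmbox1 (0.895) and Sipa1l2 (0.893). The points share groups, slides and scaling, so these values describe patterns across 4 groups.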
